A study of Mus musculus with 2 samples.

Results

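The carboxylesterases are ester-cleaving enzymes of the liver. The 10 members described here are *Ces1c*, *Ces1d*, *Ces1e*, *Ces1f*, *Ces1g*, *Ces2a*, *Ces2c*, *Ces2e*, *Ces3a* and *Ces3b*, taken as a fixed list of gene symbols. The list was drawn up with earlier results of these data known. All 10 were found in both liver files, among 20 symbols that start with Ces and a digit and 53241 distinct symbols in all. The iFIRKO library came from male mice labelled Adipoq-CreERT2; Insr flox/flox, in which a tamoxifen-activated Cre under the adiponectin promoter deletes the insulin receptor gene in adipocytes. The control library is labelled WT, whereas the study's methods give the control mice as IR flox/flox, and neither description gives them a Cre. Tamoxifen was given to the control mice as well as the iFIRKO mice, all of them male and 7 weeks old. The course was 5 daily intraperitoneal doses of 100 mg/kg, and livers were collected on day 3 after it ended. Each genotype had 1 library, and neither source says how many mice it was made from. No difference between the libraries therefore has a replicate check, and no p-value was computed.

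The Cre acts in adipocytes, so liver RNA gives no check of the deletion. *Insr* itself went from 4246 normalized reads in control to 3692 in iFIRKO (log2 fold change -0.20). The deposited values summed to 42003900 normalized reads for control and 41579630 for iFIRKO. A read pair was taken to be worth 1.987 of these in control and 2.013 in iFIRKO. Hepatocyte markers were abundant in both, with *Alb* at 4167154 and 3944156 normalized reads.

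Carboxylesterases hydrolyse esters, amides and thioesters, and a serine in the active site attacks the bond. In the liver they cleave ester drugs and prodrugs, and several of them also release fatty acids from stored glycerides, which are then burned or packed into very low density lipoprotein. Most are held in the lumen of the endoplasmic reticulum by a short signal at the end of the protein, while one of the mouse enzymes is secreted into plasma. Mice carry many more of these genes than humans, in tandem arrays of close paralogs.

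All 20 symbols lie on chromosome 8 of GRCm38. The Ces1 array runs on the minus strand, from *Ces1a* to *Ces1h*, at chr8:93020214-93379725. The array with the Ces2, Ces3 and Ces4 genes runs on the plus strand at chr8:104734003-105150109. Of the other annotated genes that overlap these arrays, 2 of 5 in the first and 7 of 9 in the second were listed at 0 in both libraries, and the highest value of the rest was 59.3 normalized reads, in *Gm8798*. *Gm45909* lies inside *Ces1d* on the same strand and had 53.2 in control and 57 in iFIRKO.

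The ends of the coding sequences are shown because the members differ there in a signal that can hold a protein in the endoplasmic reticulum. The location of the enzymes was not measured. Each stretch is the last 36 coding bases with the stop codon, from 5′ to 3′ on the coding strand, and the capitals mark the last 4 codons before the stop.

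*Ces1c* (chr8:93099165-93099200, minus strand): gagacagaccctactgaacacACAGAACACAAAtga
*Ces1d* (chr8:93166255-93166290, minus strand): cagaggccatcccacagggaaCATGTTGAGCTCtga
*Ces2a* (chr8:104741381-104741416, plus strand): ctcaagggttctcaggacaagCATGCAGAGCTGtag
*Ces2e* (chr8:104933679-104933714, plus strand): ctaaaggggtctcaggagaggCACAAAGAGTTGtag
*Ces3a* (chr8:105058068-105058103, plus strand): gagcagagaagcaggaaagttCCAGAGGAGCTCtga
*Ces3b* (chr8:105093227-105093262, plus strand): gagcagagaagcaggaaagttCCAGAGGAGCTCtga

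In 7 of the 10 members these codons spell histidine, any residue, glutamate and leucine, a form of the signal that keeps a protein in the endoplasmic reticulum. These are *Ces1d*, *Ces1e*, *Ces1f*, *Ces1g* and the 3 Ces2 members. *Ces3a* and *Ces3b* also end in glutamate and leucine but lack the histidine, and their last 36 bases are identical. *Ces1c*, the gene of the plasma carboxylesterase, has none of these endings.

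The active site serine is shown for 1 member of each subfamily. All 10 members hold the pattern glycine, any residue, serine, any residue, glycine with the serine at codons 221 to 232, and the capitals mark its codon.

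*Ces1c* (chr8:93123118-93123138, minus strand): tttggagagTCAtcagggggt
*Ces2e* (chr8:104929812-104929832, plus strand): tttggagagTCAgcaggtggc
*Ces3b* (chr8:105086673-105086693, plus strand): ttcggtaacTCTgctggaggc

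The coding sequences of the members were 1665 to 1716 bases long. Identity between subfamilies was 54.0% to 59.2% over 31 pairs. Within Ces1 it was 72.4% to 81.6% over 10 pairs, and within Ces2 82.4% to 83.6% over 3 pairs. *Ces3a* and *Ces3b* were the closest pair, at 95.3%.

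**Figure D1:**
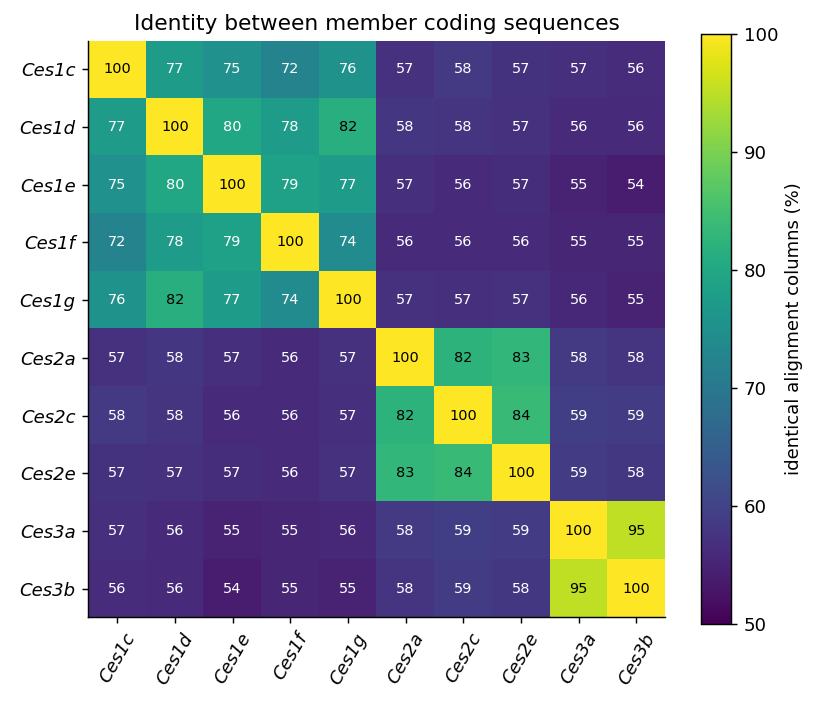
Identity between the coding sequences of the 10 members, as the percent of alignment columns that hold the same base, with the genes in chromosome order on both axes. The 3 subfamilies form blocks, and *Ces3a* with *Ces3b* is the closest pair at 95.3%.

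Close paralogs can share reads, and the sources used here do not say how such reads were assigned. Of the 7 members between 5 and 10000 read pairs, 0 lay within 0.05 of a whole number of pairs in either library. Of all genes in that range, 20% did in control and 20.6% in iFIRKO. With 7 members this count does not set them apart from other genes, and what it owes to the assignment was not tested. Every 100-base window of each member's transcript was searched for in the transcripts of all other genes in GENCODE M21. In *Ces1d*, *Ces1e*, *Ces1f*, *Ces1g* and *Ces2e* no such window occurred elsewhere. The share was 1.4% in *Ces1c*, all of it with *Ces1b*, 7.7% in *Ces3b* and 9.1% in *Ces3a*. It was 10.7% in *Ces2a*, with *Gm7208*, and 16.0% in *Ces2c*, mostly with the pseudogene *Ces2d-ps*. *Gm7208* itself was low, at 24.5 and 21.5 normalized reads. With windows of 50 bases all 10 members shared some sequence, from 1.3% in *Ces1d* to 42.2% in *Ces2c*. The separate values of *Ces1c*, *Ces2a*, *Ces2c*, *Ces3a* and *Ces3b* carry this uncertainty most.

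Levels were compared between genes per kilobase of exon, as normalized reads divided by the length of all annotated exons of the gene. The members spanned an 82.1-fold range in control and a 66.5-fold range in iFIRKO. *Ces1c* was at the top in both libraries, with 44648 normalized reads per kilobase in control and 41262 in iFIRKO, which placed it 48th and 51st among 13217 tested genes with an annotated length. *Ces3a* followed with 13509 and 14877, and *Ces1d* with 12125 and 13388. *Ces2c* was the lowest in both, at 544 and 621.

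The order between these ends differed between the libraries. In control, *Ces1g* (5230 normalized reads per kilobase) and *Ces2a* (5228) did not differ beyond their counting intervals, and *Ces1f* came next at 4655. *Ces2e* (3642) and *Ces3b* (3580) did not differ beyond theirs either, and *Ces1e* stood at 2041. In iFIRKO, *Ces2e* moved up to 4th place at 5587, while *Ces1f* (4781) and *Ces1g* (4692) overlapped. *Ces2a* stood at 3810, *Ces1e* at 2567 and *Ces3b* at 1611, in 9th place. The length used matters for *Ces1f*, whose annotated exons add up to 3285 bases against 1926 in its longest transcript. By the longest transcript it was above *Ces1g* and *Ces2a* in control and above *Ces2e* in iFIRKO, which left *Ces2e* in 5th place there. *Ces3b* was then above *Ces2e* in control, and 6 of the 10 members kept their place in control and 8 in iFIRKO.

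**Figure D2:**
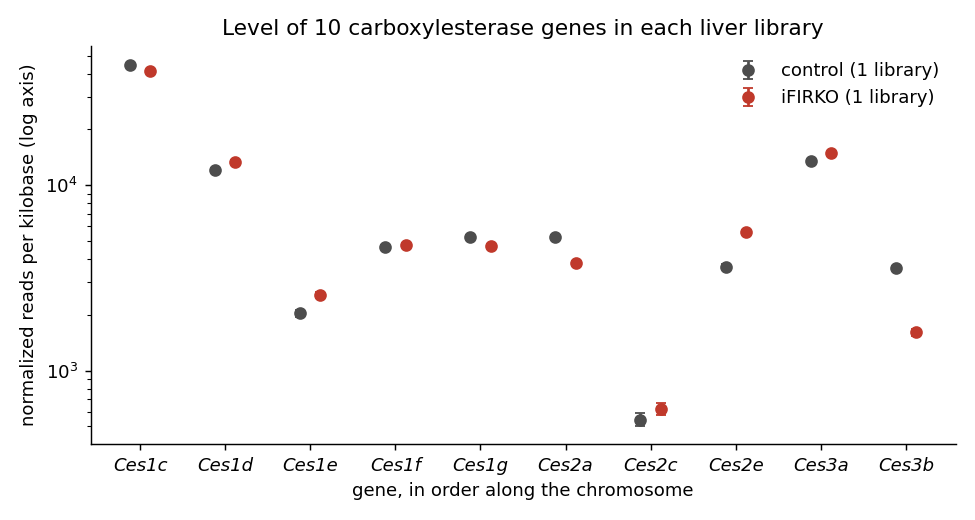
Level of each member in normalized reads per kilobase of exon on a log axis, with 1 point for the control library and 1 for the iFIRKO library and bars for 95% Poisson counting intervals, most of them smaller than the point. *Ces1c* is the highest and *Ces2c* the lowest in both libraries, and the widest gaps between the points are those of *Ces3b* and *Ces2e*.

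Fold changes divide iFIRKO by control after 4.18 normalized reads were added to both as a pseudocount, so those of low genes are understated. A gene was tested at 41.8 normalized reads or more in 1 or both libraries, which left 13390 genes, and it was called when it was more than 1.5-fold higher or lower. Intervals are 95% exact Clopper-Pearson intervals on estimated read pairs, rounded to whole pairs. They cover counting error only and compare these 2 libraries, not the genotypes. In bulk liver, fewer cells of a type and less RNA per cell cannot be told apart.

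All 10 members were tested. *Ces2e* rose past the threshold and *Ces3b* fell past it, so 1 of 10 was called higher and 1 of 10 lower. Over all tested genes, 4.46% were called higher and 7.29% lower. Since every member had over 1000 normalized reads, a level chosen after the values were seen, the same shares were taken over the 5279 tested genes that reached it, where 2.44% were called higher and 3.11% lower. The median log2 fold change of the members was 0.09, against 0.01 over all tested genes. The median of the sizes, without sign, was 0.17 for the members, 0.18 for all tested genes and 0.14 for the genes at that level. With 10 genes and 1 call in each direction, these counts do not set the family apart from other genes.

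The family as a whole differed little between the libraries. The members together went from 232771 normalized reads in control to 228806 in iFIRKO (log2 ratio -0.03, interval -0.04 to -0.01). Without *Ces1c* the direction turned, with 129054 and 132955 for the other 9 (log2 ratio 0.04, interval 0.03 to 0.06). All 10 made up 0.554% of the control library and 0.550% of the iFIRKO library. By subfamily, the Ces1 members summed to 164689 in control and 160097 in iFIRKO (log2 ratio -0.04). The Ces2 members summed to 23413 and 25495 (0.12) and the Ces3 members to 44669 and 43214 (-0.05). These sums leave out Ces symbols that are not members, such as *Ces1b* and *Ces2g*. The wider differences described next were between genes inside a subfamily.

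Grouped by their ends, the 7 members with the histidine form of the signal went together from 84385 normalized reads to 89741 (log2 ratio 0.09, interval 0.07 to 0.11). They held 36.3% of the members' reads in control and 39.2% in iFIRKO. *Ces1c* held 44.6% in control and 41.9% in iFIRKO, and the Ces3 pair 19.2% and 18.9%.

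In the Ces1 subfamily no member was called. *Ces1c* encodes the carboxylesterase that the mouse liver secretes into plasma. It went from 103717 normalized reads in the control library to 95851 in the iFIRKO library (log2 fold change -0.11, interval -0.13 to -0.10). *Ces1d* encodes triacylglycerol hydrolase, an enzyme of the endoplasmic reticulum that mobilises stored triglyceride for lipoprotein assembly. Its 28724 normalized reads in control compared with 31717 in iFIRKO (log2 fold change 0.14, 0.11 to 0.18).

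*Ces1e*, also named egasyn, binds β-glucuronidase and holds it in the endoplasmic reticulum. It showed the widest difference of the Ces1 members, at 4468 normalized reads in control against 5619 in iFIRKO, which is 1.26-fold (log2 fold change 0.33, interval 0.25 to 0.41). *Ces1f*, named triacylglycerol hydrolase 2 as a synonym, had 15292 and 15706. Its log2 fold change of 0.04 had an interval from -0.01 to 0.08, so a difference was not detectable at this depth. *Ces1g*, a microsomal esterase linked to liver and plasma lipid levels in mice, had 12488 and 11204 (log2 fold change -0.16, -0.21 to -0.10). The members of this subfamily thus lay on both sides of 0, all within 1.26-fold.

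The shares within Ces1, which are not divided by gene length, kept one order in both libraries. *Ces1c* held 63.0% of the subfamily's read pairs in control and 59.9% in iFIRKO, and *Ces1d* 17.4% and 19.8%. *Ces1f* held 9.29% and 9.81%, *Ces1g* 7.58% and 6.998%, and *Ces1e* 2.71% and 3.51%. Per kilobase of exon *Ces1g* was above *Ces1f* in control, and their intervals overlapped in iFIRKO.

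In the Ces2 subfamily the main gene changed places. Ces2 enzymes of liver and intestine cleave esters with a small acyl group, and several of them also hydrolyse diglycerides and triglycerides. *Ces2a* went from 12333 normalized reads in control to 8989 in iFIRKO. Its log2 fold change was -0.46 (interval -0.51 to -0.40), a fold of 0.729 that did not reach the threshold. *Ces2e* rose from 9831 in control to 15080 in iFIRKO (log2 fold change 0.62, 0.57 to 0.67). Its fold of 1.53 stood just past 1.5, and the interval reached below the threshold of 0.585 on the log2 scale. *Ces2c* was the least abundant member, with 1249 and 1427 (log2 fold change 0.19, 0.04 to 0.35).

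Shares were taken over the 3 Ces2 members, leaving out *Ces2g* (2253 and 2757 normalized reads) and *Ces2d-ps* (365 and 488). *Ces2a* held 52.7% of the Ces2 members' read pairs in control (interval 51.8% to 53.6%) and 35.3% in iFIRKO (34.4% to 36.1%). *Ces2e* held 41.98% (41.1% to 42.9%) and 59.1% (58.28% to 60.002%). *Ces2c* held 5.34% and 5.60%, with overlapping intervals. *Ces2a* was thus the larger of the pair in control and *Ces2e* the larger in iFIRKO. *Ces2a* and *Ces2e* were 83.2% identical in their coding sequences, and *Ces2e* shared no 100-base window with another gene.

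In the Ces3 subfamily *Ces3b* fell while *Ces3a* lay slightly above 0. Both encode liver esterases. *Ces3a* went from 35487 normalized reads in the control library to 39081 in the iFIRKO library (log2 fold change 0.14, interval 0.11 to 0.17). *Ces3b* fell from 9181 to 4133, which is a fold of 0.450 (log2 fold change -1.15, -1.23 to -1.08). Among the 5279 genes at 1000 normalized reads or more it was the 20th lowest, while *Ces2e* was the 109th highest.

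*Ces3b* held 20.6% of the Ces3 read pairs in control (20.03% to 21.1%) and 9.56% in iFIRKO (9.17% to 9.97%). The difference, iFIRKO minus control, was -2568 read pairs for *Ces3b* and 1553 for *Ces3a*, while the sum of both had a log2 ratio of -0.05 (-0.08 to -0.02). Their coding sequences have the same length of 1716 bases with 81 mismatches, and the longest stretch without one is 194 bases. The 60 bases with the most mismatches are shown because a read that covers them can be told apart. They lie within 1 exon, and the capitals mark the 13 mismatches.

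*Ces3a* (chr8:105051766-105051825, plus strand): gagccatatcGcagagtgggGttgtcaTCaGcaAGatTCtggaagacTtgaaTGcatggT
*Ces3b* (chr8:105086856-105086915, plus strand): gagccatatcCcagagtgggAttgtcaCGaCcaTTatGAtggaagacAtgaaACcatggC

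Most 100-base windows of either transcript were its own, since 177 windows were common to both, of 1947 in *Ces3a* and 2304 in *Ces3b*. Whether the assignment of common reads played a part in the opposite values was not tested.

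**Figure D3:**
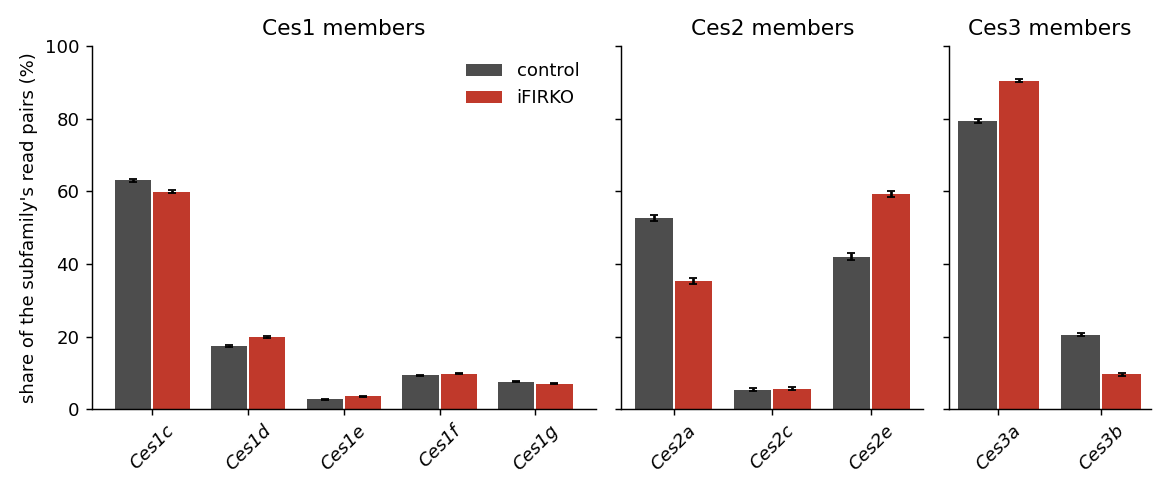
Share of the estimated read pairs of each subfamily's members, in percent and not divided by gene length, held by each member in the control and iFIRKO libraries. Ces symbols that are not members are left out, and error bars are 95% exact binomial counting intervals. *Ces2a* goes from 52.7% to 35.3% and *Ces2e* from 41.98% to 59.1%, while *Ces3b* goes from 20.6% to 9.56% and the Ces1 members stay in one order.

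The other 10 Ces symbols were mostly low. *Ces1b*, which lies next to *Ces1c*, was the highest, at 4744 normalized reads in control against 3867 in iFIRKO (log2 fold change -0.29, interval -0.38 to -0.21). *Ces2g* had 2253 and 2757 (log2 fold change 0.29, 0.18 to 0.41). The pseudogene *Ces2d-ps* had 365 and 488 (log2 fold change 0.42, 0.13 to 0.70), and it shares windows with *Ces2c*. *Ces4a* had 49.7 and 30.2. Its log2 fold change of -0.65 was past the threshold, but the interval from -1.75 to 0.26 includes no difference. *Ces1a* had 24.4 and 19.8, *Ces2h* 15.3 and 21.8, *Ces2b* 13.6 and 1.8 and *Ces1h* 6.6 and 4.5, all under the minimum. *Ces2f* was listed at 0 in control and at 1.3 in iFIRKO, and *Ces5a* at 0 in both.

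Along the chromosome, neither array moved in 1 direction as a whole. In the Ces1 array the log2 fold changes ran from *Ces1b* at -0.29 and *Ces1c* at -0.11 over *Ces1d* at 0.14 and *Ces1e* at 0.33 to *Ces1f* at 0.04 and *Ces1g* at -0.16. In the second array they ran from *Ces2a* at -0.46 over *Ces2c* at 0.19, *Ces2d-ps* at 0.42, *Ces2e* at 0.62 and *Ces2g* at 0.29 to *Ces3a* at 0.14 and *Ces3b* at -1.15.

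**Figure D4:**
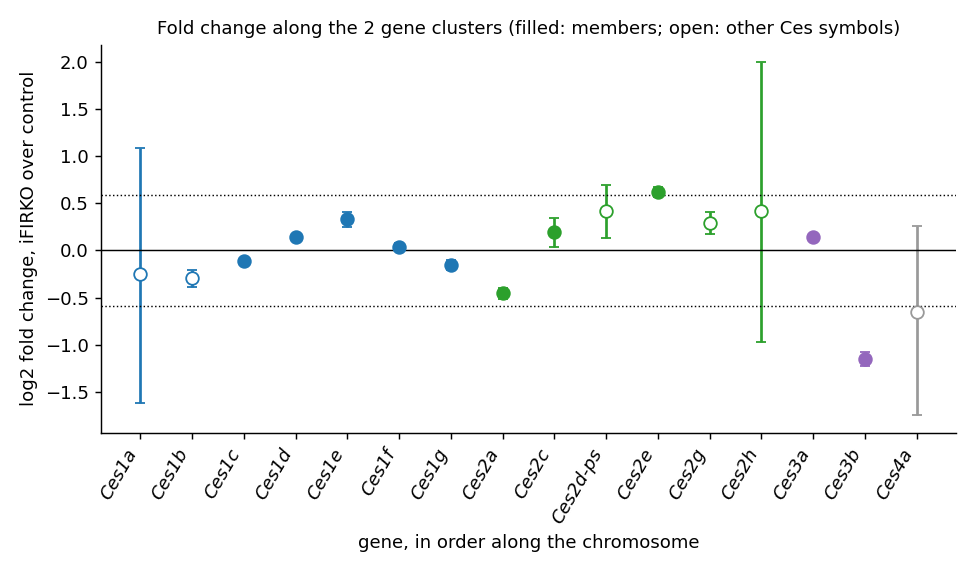
Log2 fold change, iFIRKO over control, of the Ces symbols with more than 3 read pairs in both libraries, in chromosome order and coloured by subfamily (Ces1 blue, Ces2 green, Ces3 purple, Ces4 grey), with filled points for the members, open points for other Ces symbols, 95% counting intervals as bars and dotted lines at 1.5-fold. *Ces2e* at 0.62 and *Ces3b* at -1.15 are the members past the lines, and the open points with wide bars are genes of few reads.

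**Figure D5:**
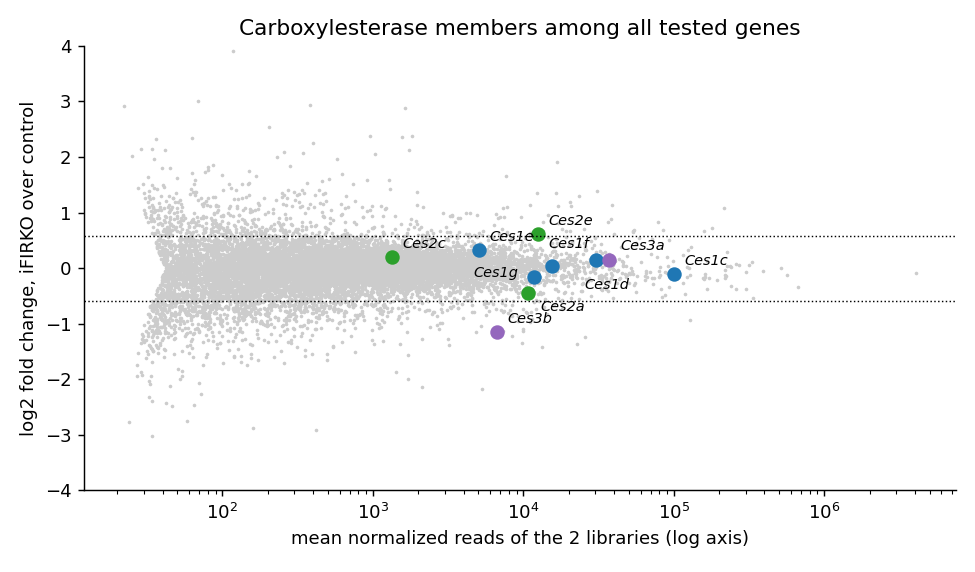
Log2 fold change, iFIRKO over control, against mean normalized reads on a log axis for the 13390 tested genes (grey) and the 10 members (coloured by subfamily as Ces1 blue, Ces2 green and Ces3 purple), with dotted lines at 1.5-fold. Of the members, 8 lie between the lines, *Ces2e* lies just above and *Ces3b* below, and 2 genes beyond 4 on the log2 scale are not drawn.

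Other ester hydrolases of the liver were listed for comparison. Of 18 listed genes 17 were tested, 1 was called higher and 1 lower, against 4.46% and 7.29% of all tested genes, and their median log2 fold change was 0.03. *Mgll*, the monoglyceride lipase that releases the last fatty acid of a triglyceride, rose from 4718 to 8861 normalized reads (log2 fold change 0.91, 0.84 to 0.98). *Lpl*, the lipoprotein lipase, fell from 1564 to 1029 (log2 fold change -0.60, -0.77 to -0.44). *Afmid*, the arylformamidase of tryptophan breakdown, had 8709 and 5815, and its log2 fold change of -0.58 did not pass. *Aadac*, an arylacetamide esterase of the endoplasmic reticulum, had 13940 and 14821 (0.09), and the lysosomal lipase gene *Lipa* 12445 and 12708 (0.03). *Pon1*, a plasma esterase made by the liver, had 26709 and 27280 (0.03).

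Genes of the lipid droplet and of lipoprotein assembly, where the *Ces1d* product acts, were listed next. Of 11 listed genes 10 were tested, 4 were called higher and 0 lower, against 4.46% and 7.29% of all tested genes, and the median log2 fold change was 0.34. The lipase inhibitor gene *G0s2* rose from 510 to 2623 normalized reads (log2 fold change 2.35, interval 2.17 to 2.56). *Cidec*, a droplet fusion gene, rose from 17.9 in control, under the minimum, to 108 in iFIRKO (2.35, wider interval of 1.57 to 3.81). The droplet coat gene *Plin2* rose from 13686 to 22423 (0.71) and *Apoc3*, which slows triglyceride clearance, from 31647 to 48182 (0.61). *Apob*, the scaffold of the lipoprotein, had 158321 and 173667 (0.13), and *Dgat2*, which makes triglyceride, 18322 and 20838 (0.19). *Ces1d* at 0.14 was below the median of this list.

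Nuclear receptors and other factors known to act on carboxylesterase genes formed the third list. All 12 were tested, 0 were called higher and 1 lower, against 4.46% and 7.29% of all tested genes, and the median log2 fold change was -0.03. *Nr0b2*, the corepressor SHP, fell from 1480 to 861 normalized reads (-0.78, interval -0.96 to -0.61). *Nfe2l2*, which encodes NRF2, had 3126 and 4199 (0.43), and *Nr3c1*, the glucocorticoid receptor gene, 3299 and 2778 (-0.25). *Hnf4a* had 29516 and 28673 (-0.04), *Rxra* 14902 and 14396 (-0.05) and *Srebf1* 12113 and 10721 (-0.18). The xenobiotic receptor genes *Nr1i2* and *Nr1i3*, named here after their values were seen, stood at -0.02 and -0.03. Of the 3 receptors that retrieve proteins to the endoplasmic reticulum by their end signal, 2 were tested, *Kdelr1* (-0.03) and *Kdelr2* (0.20), and neither was called.

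Markers of some other liver cells differed between the libraries, and the part of any cell type in the family's values was not tested. The calls below stand against the 4.46% of all tested genes called higher and the 7.29% called lower. Of 10 hepatocyte markers 0 were called higher and 1 lower, *Apoa1* at -0.94, with a median log2 fold change of -0.06 and summed normalized reads of 5581219 and 5199789. All 8 Kupffer cell and macrophage markers were below 0, 5 of them past the threshold, and their sum went from 30092 to 19564. All 7 endothelial markers were below 0, 2 of them past it, with sums of 10400 and 7582. The 7 stellate markers had a median of 0.14 with 0 called, and the 4 tested cholangiocyte markers of 5 a median of -0.32 with 0 called. Sums were 9890 and 10500 for the former and 529 and 430 for the latter. Of 4 B cell markers 3 were tested and 2 called lower, with sums of 313 and 122. Of 4 neutrophil markers 2 were tested and 2 called lower, with sums of 384 and 110. The 5 T and NK cell markers were all under the minimum, with sums of 113 and 71.5. Of the erythroid markers 3 were tested, 2 higher and 1 lower, and their sum went from 791 to 2046. The 5 adipocyte markers were at 0 in control and summed to 12.1 in iFIRKO.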

How the data were processed

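Stranded mRNA libraries from total liver RNA were sequenced, with 1 control and 1 iFIRKO library. For every gene symbol the authors deposited 1 value per library, named a normalized read count in the control file and unnamed in the iFIRKO file. That the deposited values are on a log2 scale was inferred in both from their range and steps, with anything at or below 1 on the linear scale at 0, and every fold change rests on it. The submitters' processing notes name the build mm10, and the aligner, counter and normalization are not given in the sources used here. Both files hold 53342 rows, of which 101 repeat a symbol (the first was kept). All values were first taken back to linear normalized reads. A read pair was taken to be worth 1.987 normalized reads in control and 2.013 in iFIRKO, the commonest value near 2 in each. That this unit is 1 read pair was assumed, and the counting intervals rest on it. A CPM of 1 stood for 41.8 normalized reads (the minimum) and a CPM of 0.1 for 4.18 (the pseudocount). The fold of 1.5 is that of the study's methods. No fold change was computed for genes at 3 read pairs or below in one of the libraries.

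Positions, exon lengths and transcript sequences came from GENCODE M21 on GRCm38, where all 20 Ces symbols matched. Coding sequences were aligned end to end with Biopython 1.88. Members and lists were chosen with earlier results of these data known. Genes named are the members, all other Ces symbols, and up to 3 genes by level and 3 by fold from each list, while for marker lists counts are mostly given. Of the marker symbols, 1 erythroid symbol matched no row. Alternatives covered the pseudocount, the minimum, the scaling, the fold, repeated symbols and gene length. The functions were tested on simulated data. The scripts used scipy 1.17.1, pandas 2.3.3, matplotlib 3.10.9 and numpy 2.4.6 under Python 3.11.15.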

Additional observations from a re-analysis of the deposited data

How the results depend on the processing

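Only 5 of the 10 alternatives could move a member's fold change, 2 of them pseudocounts and 3 scalings of the libraries, and the scalings shift all members nearly alike. Under these the largest shift was 0.015 on the log2 scale, *Ces2e* lay between 0.605 and 0.631 and *Ces3b* between -1.163 and -1.136. The assignment of reads between paralogs could not be varied from the deposited values. With a fold above 2, 0 members were called higher and *Ces3b* was still lower. The summed Ces1 ratio moved from -0.041 to -0.026 when libraries were scaled to their totals without the members. With the longest transcript in place of all exons, 6 of 10 members kept their place in the control order by level per kilobase. The number of all genes called moved more, to 371 higher and 576 lower with a pseudocount of a CPM of 1, 1956 and 2617 without a minimum, 288 and 440 with a minimum CPM of 5, and 209 and 267 with a fold above 2. No paired analysis was possible because only 1 library of either genotype was analysed here, and none could be left out. Depth gives the members narrow counting intervals, and variation between mice was not measured.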
